A study of Mus musculus with 12 samples.

Results

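Dab2, Cubn, Lrpap1, Pdgfra, Apoe, Ttr and Afp were followed across all groups of a hydrogen peroxide experiment in mouse embryonic stem cells. They are the 7 members, among 8251 genes with 1 symbol in the platform annotation, of a set of endocytic proteins, receptors and secreted proteins linked to the visceral endoderm. All 15 of their probe sets among the 12488 on the array are reported. The genes were chosen with results of these arrays known, mainly that several of them read far lower after 5 mM peroxide. Values of 5 mM against PBS, and of 5 mM against 100 µM, are therefore descriptions and carry no p-value. Values of 100 µM against PBS come from the same arrays as those comparisons. Their adjusted p-values are thus not independent of the choice of genes and are no separate test of it.

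RNA came from clone C2, a single clone of E14tg2a mouse embryonic stem cells carrying targeted recognition sites for the endonuclease I-SceI, and all groups share this background. PBS control cells were held in phosphate-buffered saline (PBS; n = 3). Low-dose cells received 100 µM hydrogen peroxide in PBS for 15 min (n = 4), and high-dose cells received 5 mM for 30 min (n = 5), and both then recovered for 1 h in maintenance medium. The higher concentration was also the longer exposure. The sources used here do not give the controls' time in PBS or any recovery of theirs, so the return to medium and the peroxide cannot be told apart. Nothing in the labels says that replicates were separate cultures, so p-values cover only the spread among these arrays, and that spread may be technical.

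The visceral endoderm is the absorptive and secretory epithelium that covers the early embryo; it descends from the primitive endoderm, which forms beside the pluripotent cells of the blastocyst. It takes up maternal proteins through large apical receptors. Cubilin (Cubn) binds ligands at the surface with its partner amnionless (Amn) and with megalin (Lrp2). Disabled 2 (Dab2) is a cytoplasmic adaptor that links such receptors to clathrin. The receptor-associated protein (Lrpap1) is a chaperone of the endoplasmic reticulum that keeps receptors of the low-density lipoprotein (LDL) receptor family free of ligand until they reach the surface. Pdgfra encodes a receptor tyrosine kinase for platelet-derived growth factors (PDGF) and marks the primitive endoderm. Apoe, Ttr and Afp encode secreted carriers: apolipoprotein E carries lipids, transthyretin carries thyroid hormone and retinol-binding protein, and alpha-fetoprotein is the main serum protein of the fetus and yolk sac.

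Promoters are shown for the 4 genes in whose brightest probe set every 5 mM array read below every PBS array. The genes were chosen with such values known. Each sequence runs from 250 bases before to 50 bases after a RefSeq start in GRCm38.p6, 5′ to 3′ on the gene's strand, and 6 of the 7 genes had an entry. Capitals mark the hexamers the hexamer AGATAA, the hexamer AGATAG, the hexamer TGATAA and the hexamer TGATAG, the core that GATA factors bind, searched on both strands.
Dab2, first start (chr15:6299539-6299838, plus strand): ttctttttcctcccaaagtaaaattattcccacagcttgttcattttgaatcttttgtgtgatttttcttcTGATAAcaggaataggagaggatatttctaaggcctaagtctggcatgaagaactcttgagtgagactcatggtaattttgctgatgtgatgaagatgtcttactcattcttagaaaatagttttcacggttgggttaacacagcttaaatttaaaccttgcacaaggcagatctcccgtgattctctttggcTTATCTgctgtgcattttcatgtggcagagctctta
Dab2, second start (chr15:6386498-6386797, plus strand): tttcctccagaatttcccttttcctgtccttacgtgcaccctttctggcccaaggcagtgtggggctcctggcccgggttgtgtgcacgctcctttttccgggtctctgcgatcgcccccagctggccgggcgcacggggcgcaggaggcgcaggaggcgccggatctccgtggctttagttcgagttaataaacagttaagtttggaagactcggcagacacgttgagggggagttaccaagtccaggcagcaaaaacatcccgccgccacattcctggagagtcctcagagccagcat
Cubn (chr2:13491827-13492126, minus strand): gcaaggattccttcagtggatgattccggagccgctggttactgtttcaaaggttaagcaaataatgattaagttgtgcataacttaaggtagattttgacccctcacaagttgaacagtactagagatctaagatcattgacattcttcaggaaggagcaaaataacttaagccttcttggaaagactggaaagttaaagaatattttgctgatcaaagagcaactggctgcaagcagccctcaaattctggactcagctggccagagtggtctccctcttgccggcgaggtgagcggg
Lrpap1 (chr5:35105650-35105949, minus strand): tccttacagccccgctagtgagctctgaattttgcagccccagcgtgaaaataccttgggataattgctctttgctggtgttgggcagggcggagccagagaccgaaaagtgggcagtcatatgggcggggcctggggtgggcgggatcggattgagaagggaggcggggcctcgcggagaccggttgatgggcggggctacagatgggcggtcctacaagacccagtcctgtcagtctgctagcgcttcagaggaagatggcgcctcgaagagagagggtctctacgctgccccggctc
Pdgfra (chr5:75152001-75152300, plus strand): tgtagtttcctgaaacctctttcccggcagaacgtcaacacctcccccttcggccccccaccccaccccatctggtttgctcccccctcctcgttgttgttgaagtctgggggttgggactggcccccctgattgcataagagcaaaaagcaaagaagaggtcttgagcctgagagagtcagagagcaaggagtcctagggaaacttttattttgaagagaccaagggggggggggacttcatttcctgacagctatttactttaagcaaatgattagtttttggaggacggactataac

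The first Dab2 start had 2 such hexamers, one at position -179 on the plus strand and one at position 15 on the minus strand, counted from the start as 1. The windows of the second Dab2 start, Cubn, Lrpap1 and Pdgfra had none of these letters. Of all 32851 promoter windows of this length, 29.8% held at least 1 of the hexamers. A match is a string of letters and not a measured binding site.

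The top of the signal range was not the same in all groups. The most intense probe set read 7206 to 8904 on the PBS arrays, 14976 to 24225 at 100 µM and 19733 to 34685 at 5 mM. The 3′/5′ signal ratios, which fall out of balance when RNA is degraded, ran from 0.871 to 1.99 (PBS), 1.11 to 1.49 (100 µM) and 1.05 to 1.49 (5 mM) for the Actb control probe sets. Those of Gapdh ran from 0.588 to 0.831, 0.780 to 0.931 and 0.776 to 0.872 in the same order. Their part in the results was not tested.

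After 100 µM peroxide, Dab2, Lrpap1 and Pdgfra rose, with log2 differences of 0.84 to 1.21 over their 7 tested probe sets. After 5 mM, the brightest probe sets of Dab2, Cubn and Pdgfra read far lower than in PBS and that of Lrpap1 moderately lower, while dimmer sets of Dab2, Cubn and Pdgfra read less low, level or higher. The bright Apoe set had a higher signal after 5 mM, but its rank within the array overlapped with that in PBS. The signals of Ttr and Afp were dim, with overlapping groups. Values are MAS5 signals on a linear scale. Differences are on the log2(signal + 10.1) scale with their standard error (SE) from limma, a scale on which dim probe sets show too small a change. A probe set counts as past the threshold at a Benjamini-Hochberg adjusted p under 0.05 over the 8695 probe sets bright enough to be tested. Of the 15 member probe sets 12 were tested and 3 were too dim. The suffixes s, g, f, i and r in probe set names mark sets designed under relaxed rules, which may read more than 1 transcript or hold an altered number of probes.

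**Figure D1:**
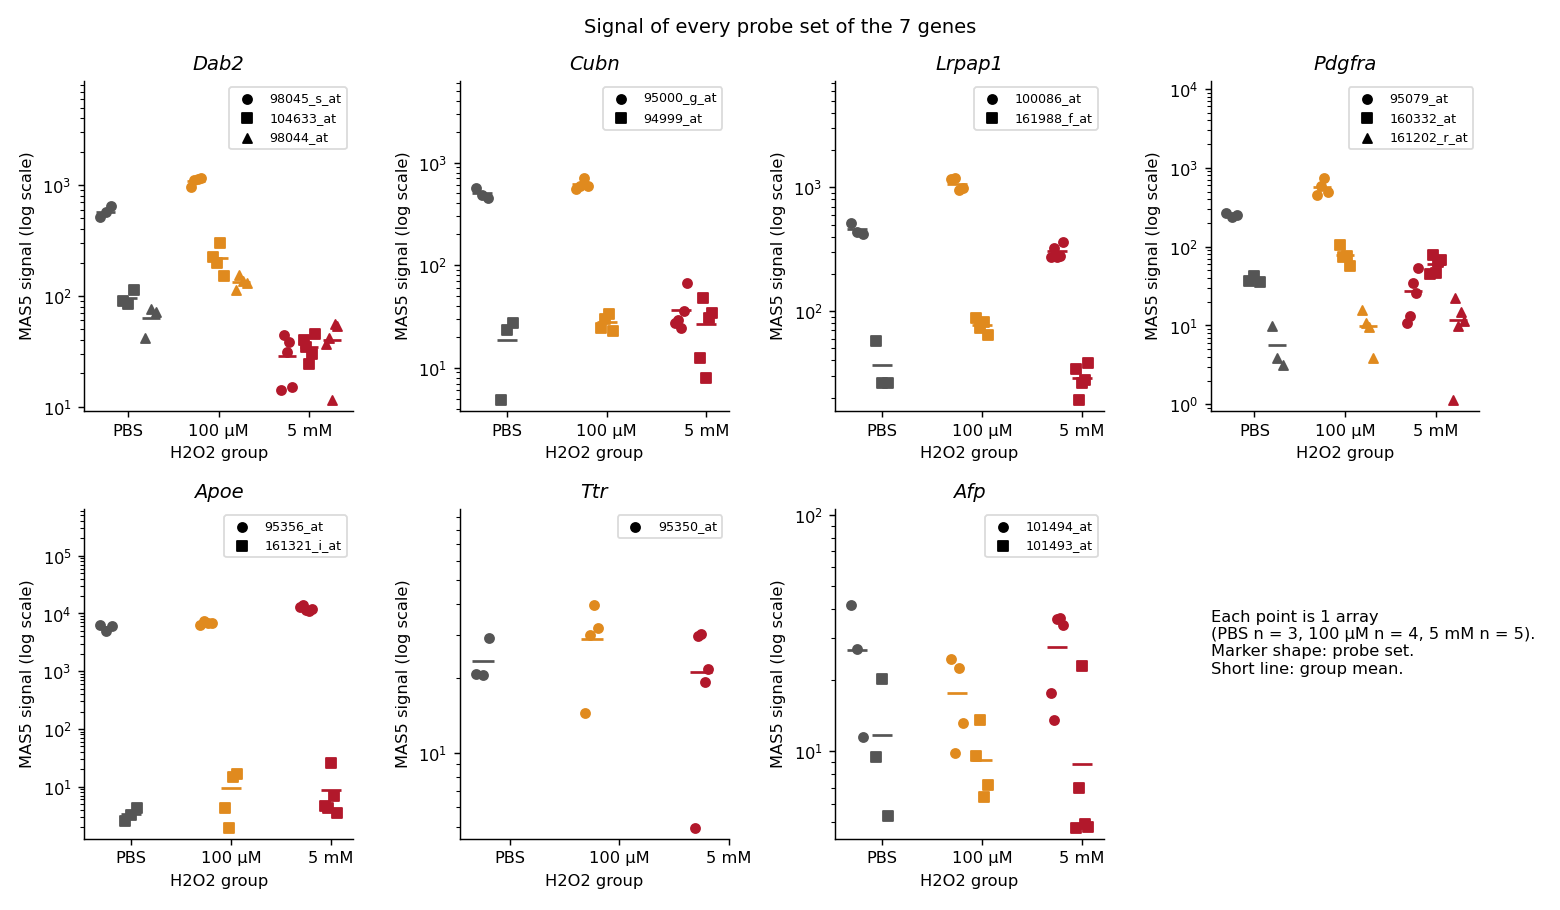
MAS5 signal (log axis) of all 15 probe sets of the 7 genes by group, with 1 point per array, marker shape for the probe set and a short line at the group mean. In the brightest sets of Dab2, Cubn and Pdgfra all 5 arrays at 5 mM lie below all PBS arrays, and in those of Dab2, Lrpap1 and Pdgfra all 4 arrays at 100 µM lie above them.

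Among the endocytic genes, the brightest Dab2 probe set, 98045_s_at, read 515, 567 and 649 on the PBS arrays. It read 957, 1102, 1127 and 1167 at 100 µM, and 14.0, 44.1, 31.4, 38.1 and 15.2 at 5 mM. The 3 groups did not overlap: every 100 µM array was above every PBS array, and every 5 mM array was far below both. Dab2 by this set averaged 1088 ± 91.6 at 100 µM (SD, n = 4) and 577 ± 67.4 in PBS (SD, n = 3), a log2 difference of 0.91 ± 0.25 (SE; limma adjusted p = 0.0148; 0.0531 with a floor in place of the offset). At 5 mM it averaged 28.6 ± 13.5 (n = 5), a log2 difference from PBS of -3.996 ± 0.24 (15.96-fold lower). Replicates 1 and 5 at 5 mM were below the signal of 19.1 that the filter asks on average, and the size depends on the offset: it was -3.18 with 4 times the offset and -4.48 with a floor. In rank, this set lay between the 83.7th and 87th percentile of its array in PBS, between the 91.5th and 93.2th at 100 µM and between the 23.9th and 42.5th at 5 mM.

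Both other Dab2 probe sets had the same order of groups with smaller falls. Set 104633_at read 90.5, 84.4 and 113 in PBS, 223, 198, 299 and 150.4 at 100 µM, and 40.1, 34.7, 24.1, 29.9 and 45.2 at 5 mM. Again the 3 groups did not overlap. It rose at 100 µM by a log2 difference of 1.07 ± 0.24 (limma adjusted p = 0.00452) and its difference at 5 mM was -1.25 ± 0.23. Set 98044_at averaged 63.3 ± 18.9 in PBS, 134 ± 16.6 at 100 µM and 39.7 ± 17.7 at 5 mM. Its rise at 100 µM was 1.00 ± 0.33 on the log2 scale (limma adjusted p = 0.036). That call did not hold without any 1 of the 3 PBS arrays or of 100 µM replicates 2, 3 and 4 (adjusted p of 0.0516 to 0.145), nor under 6 other settings (0.0586 to 0.0742). Its difference at 5 mM was -0.62 ± 0.31, with 5 mM replicates 4 and 5 (55.8 and 53.3) inside the PBS range of 41.6 to 76.3. Within single arrays the signal of 98045_s_at over that of 104633_at was 0.336 to 1.30 at 5 mM, against 5.69 to 6.72 in PBS. Both sets were dim at 5 mM, at the 23.9th to 42.5th and the 34.2th to 42.4th percentile of their arrays. The ratio of 2 such dim signals cannot show whether the transcripts they read changed unequally.

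Cubn, the receptor itself, was read by a bright and a dim set. The bright set, 95000_g_at, read 567, 478 and 455 in PBS, 549, 589, 712 and 596 at 100 µM, and 27.3, 29.2, 24.6, 36.1 and 66.8 at 5 mM. All 5 mM arrays were below all others, while the 100 µM and PBS arrays overlapped. The Cubn difference at 5 mM was -3.50 ± 0.22 on the log2 scale (11.3-fold lower), -2.83 with 4 times the offset and -3.86 with a floor. At 100 µM it was 0.29 ± 0.23 (limma adjusted p = 0.395). The dim set, 94999_at, averaged 18.5 ± 12.004 in PBS, 27.6 ± 5.00 at 100 µM and 26.6 ± 16.4 at 5 mM, with overlapping groups and log2 differences from PBS of 0.50 ± 0.41 (100 µM; limma adjusted p = 0.412) and 0.34 ± 0.39 (5 mM). It lay between the 13.1th and 44th percentile of its arrays throughout, so the low Cubn level after 5 mM rests on 1 probe set.

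Lrpap1, the chaperone of LDL-family receptors, rose the most at 100 µM among the brightest sets of the 7 genes. Set 100086_at read 518, 434 and 423 in PBS, 1169, 1198, 949 and 983 at 100 µM, and 275, 325, 275, 281 and 365 at 5 mM. The 3 groups did not overlap. The rise at 100 µM was 1.21 ± 0.14 on the log2 scale (2.31-fold; limma adjusted p = 3.72e-05), and the difference at 5 mM was -0.58 ± 0.14 (1.49-fold lower). The dimmer Lrpap1 set, 161988_f_at, read 57.7, 26.2 and 26.4 in PBS, 88.1, 72.7, 81.6 and 64.0 at 100 µM, and 33.9, 19.1, 26.3, 27.9 and 37.9 at 5 mM. It rose at 100 µM by 0.95 ± 0.27 (limma adjusted p = 0.0188), a call lost without PBS replicate 2 (adjusted p = 0.0868) or PBS replicate 3 (0.0841), after quantile normalization (0.0642) or with equal array medians (0.0525). At 5 mM its difference was -0.22 ± 0.26 and the arrays overlapped with those in PBS.

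Pdgfra, the growth factor receptor, was read by 3 probe sets that disagreed at 5 mM. The brightest, 95079_at, read 267, 238 and 253 in PBS, 449, 588, 748 and 489.6 at 100 µM, and 10.9, 13.1, 34.1, 26.1 and 53.6 at 5 mM. The 3 groups did not overlap. This Pdgfra set rose at 100 µM by 1.11 ± 0.31 on the log2 scale (limma adjusted p = 0.016; 0.054 without PBS replicate 2 and 0.0555 with a floor). Its difference at 5 mM was -2.92 ± 0.29 (7.58-fold lower), -2.14 with 4 times the offset and -3.44 with a floor. Set 160332_at read 37.0, 42.5 and 35.2 in PBS, 106, 73.8, 75.7 and 57.3 at 100 µM, and 45.5, 79.3, 46.3, 63.1 and 67.5 at 5 mM. Here both treated groups lay above PBS in every array, with a rise at 100 µM of 0.84 ± 0.24 (limma adjusted p = 0.0182; 0.0594 without PBS replicate 3 and 0.0505 without 100 µM replicate 1) and a difference at 5 mM of 0.52 ± 0.23. Set 161202_r_at was too dim to test, at 5.66 ± 3.76 in PBS, 9.88 ± 4.78 at 100 µM and 11.9 ± 7.70 at 5 mM.

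Apoe, among the secreted carriers, was read by a bright and a dim set. Set 95356_at read 6287, 4896 and 6011 in PBS, 6313, 7451, 6764 and 6943 at 100 µM, and 12904, 13798, 11509, 11037 and 11855 at 5 mM. Every 5 mM array was above every other array, and the lowest 100 µM array was just above the highest PBS array. The log2 difference was 1.09 ± 0.13 at 5 mM and 0.27 ± 0.13 at 100 µM (limma adjusted p = 0.158). The order of Apoe within its array gave another picture. Among 12422 probe sets it ranked 42nd, 49th and 51st from the top in PBS, 91st, 91st, 88th and 74th at 100 µM, and 61st, 54th, 45th, 42nd and 39th at 5 mM. Mean ranks were 48.2 ± 9.09 at 5 mM (SD, n = 5) and 47.3 ± 4.73 in PBS (n = 3), with overlapping arrays. At 100 µM the mean rank was 86.0 ± 8.12 (n = 4), lower in the order than in PBS on every array (exact two-sided permutation p = 0.0286, the smallest possible; adjusted p = 0.0858 over 12 tests). With all arrays forced to 1 distribution by quantile normalization, the log2 difference of Apoe was -0.0567 at 5 mM and -0.58 at 100 µM (limma adjusted p = 0.000754, and 0.000754 to 0.804 over all settings tried). The sign thus turned at both doses under this scaling, with a value near zero at 5 mM. No other setting tried turned it. The second Apoe set, 161321_i_at, was too dim to test, at 3.34 ± 0.823 in PBS, 9.31 ± 7.25 at 100 µM and 8.87 ± 9.19 at 5 mM.

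**Figure D2:**
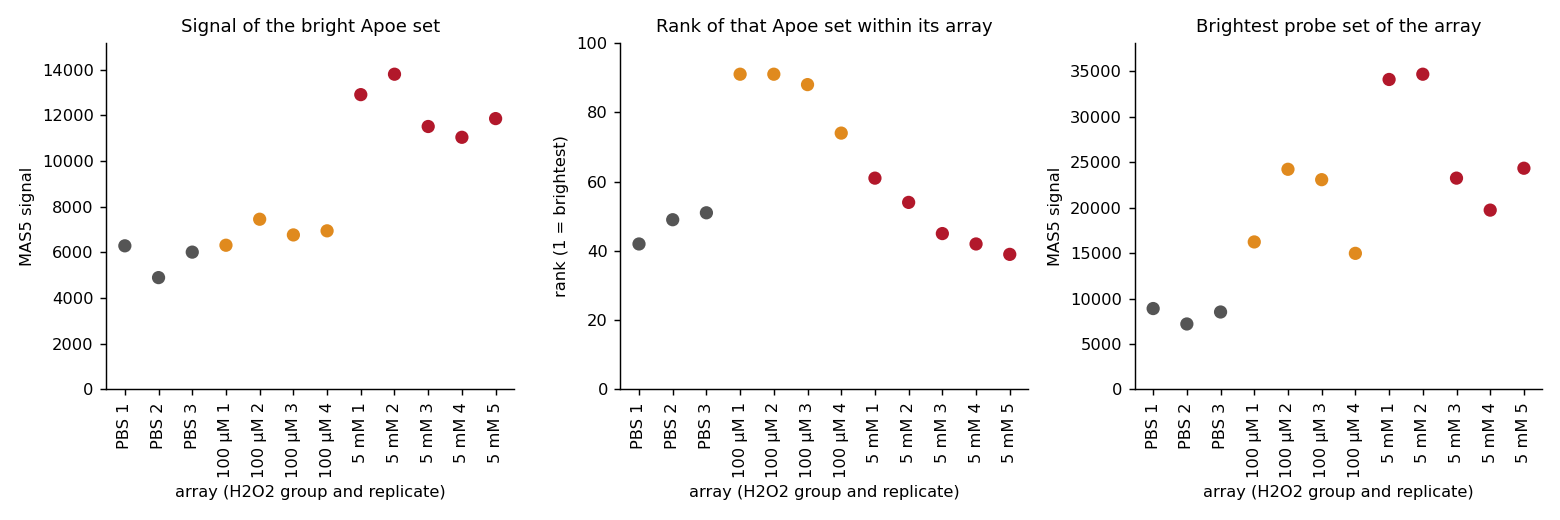
Signal of Apoe set 95356_at (left), its rank among the non-control probe sets of the same array with 1 as the brightest (middle), and the brightest signal of the array (right), with 1 point per array. The 5 mM arrays have Apoe signals of 11037 to 13798, beside 4896 to 6287 in PBS, but ranks of 39 to 61 beside 42 to 51 in PBS, and brighter maxima.

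Both other secreted carriers gave dim signals in every group. Ttr, by its only probe set 95350_at, read 20.9, 20.6 and 29.2 in PBS, 14.4, 29.9, 39.5 and 31.8 at 100 µM, and 4.97, 29.7, 30.3, 19.3 and 21.9 at 5 mM. Its groups overlapped, with log2 differences from PBS of 0.18 ± 0.36 at 100 µM (limma adjusted p = 0.763) and -0.17 ± 0.34 at 5 mM. Afp set 101494_at read 41.4, 27.2 and 11.5 in PBS, 24.6, 9.86, 22.6 and 13.1 at 100 µM, and 17.6, 13.6, 36.1, 36.8 and 34.3 at 5 mM. Those groups overlapped too, with differences of -0.36 ± 0.36 (100 µM; limma adjusted p = 0.508) and 0.07 ± 0.35 (5 mM). The other Afp set, 101493_at, averaged 11.7 ± 7.68, 9.16 ± 3.20 and 8.85 ± 7.89 in PBS, 100 µM and 5 mM arrays and was too dim to test. At these levels a change of Ttr or Afp would be hard to detect.

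Counted by probe set, 7 of the 12 tested member sets rose at 100 µM, 0 fell and 5 did not pass in limma. The 7 were the tested sets of Dab2, Lrpap1 and Pdgfra, several per gene, and are not separate observations. By the brightest set per gene, Dab2, Lrpap1 and Pdgfra rose, beside 11.9% of all genes. At an unadjusted p under 0.05 the counts were also 7 and 0, but no share over all tested sets was computed at that level. Over all tested probe sets 12.8% rose and 11.2% fell past the adjusted threshold (24.0% in all). All 4 arrays at 100 µM were above all PBS arrays in 8 of the 12, as in 18.4% of all tested sets. The count of 7 was 4 without PBS replicate 2 and 4 without PBS replicate 3. Leaving out single arrays, and the other settings tried, never ended the calls of Dab2 104633_at and Lrpap1 100086_at. The median log2 difference of the 12 sets was 0.88, against 0.08 over all tested sets. The PBS arrays also took part in the choice of the genes, so these counts are not independent of it.

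At 5 mM against PBS, 5 of the 12 sets were past the threshold and lower (1 each of Cubn, Lrpap1 and Pdgfra and 2 of Dab2) and 1 was past it and higher (Apoe). Over all tested sets 6.03% were lower and 5.68% higher (11.7% in all). All 5 mM arrays were below all PBS arrays in 5 sets and above them in 2, as in 10.4% and 9.61% of all tested sets. At 5 mM against 100 µM, 7 were lower and 1 higher, beside 14.6% and 12.8% of all tested sets (27.4% in all). In that comparison the log2 differences of the brightest sets were -4.90 for Dab2, -4.04 for Pdgfra, -3.79 for Cubn and -1.79 for Lrpap1. With 4 times the offset the first 3 were -4.05, -3.18 and -3.10, and with a floor -5.40, -4.58 and -4.15. Apoe differed by 0.83, Afp by 0.43 and Ttr by -0.35. The genes were chosen from such differences, and nothing is read from these counts.

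**Figure D3:**
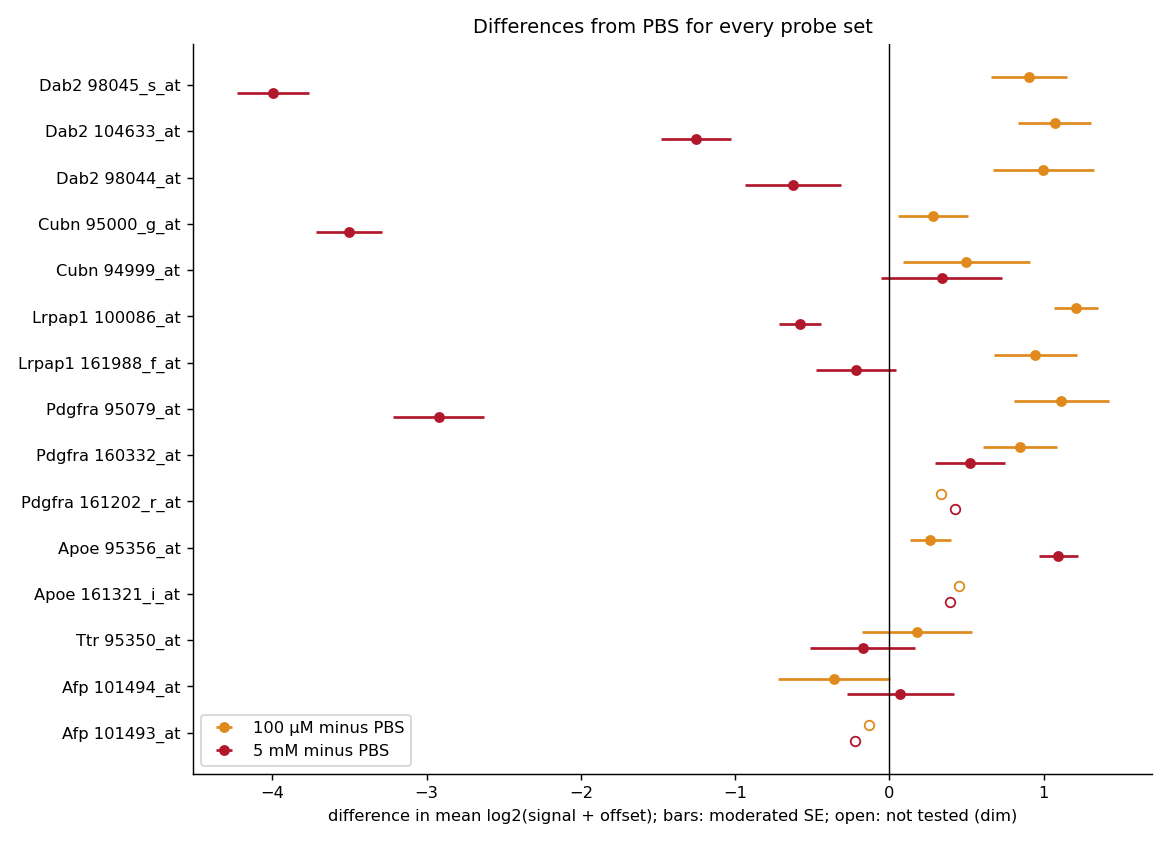
Difference from PBS in mean log2(signal + 10.1) for each of the 15 probe sets (rows), at 100 µM and at 5 mM, with moderated SE bars; open points mark the 3 sets too dim to test. All 7 tested sets of Dab2, Lrpap1 and Pdgfra lie right of zero at 100 µM, and the sets of 1 gene spread widely at 5 mM, from -2.92 to 0.52 for Pdgfra.

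Variation among arrays of 1 group was small for the bright sets in PBS and at 100 µM, with coefficients of variation of 11.7% and 8.42% for Dab2 98045_s_at, 11.8% and 11.4% for Cubn 95000_g_at and 11.3% and 11.8% for Lrpap1 100086_at. Pdgfra 95079_at varied by 5.71% in PBS and by 23.4% at 100 µM. At 5 mM, where signals were low, the coefficients were 47.4% for Dab2, 47.0% for Cubn and 63.1% for Pdgfra, but 13.1% for Lrpap1. Replicate 3 at 100 µM had the highest Pdgfra (748), the highest Cubn (712) and the highest Dab2 by set 104633_at (299), but the lowest Lrpap1 (949), and Dab2 98045_s_at was highest in replicate 4 (1167). Replicate 5 at 5 mM had the highest Pdgfra (53.6), Cubn (66.8) and Lrpap1 (365) of its group, while Dab2 98045_s_at read only 15.2 there.

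The profiles of single genes over the 12 arrays were compared by the root mean square (RMS) difference of log2 values, each taken relative to its PBS mean, over 6413 other genes by their brightest sets. This was done for the 4 members that differed by at least 1 on the log2 scale at 5 mM. Nearest to Dab2 were Col4a1 (RMS 0.51), a basement membrane collagen, then Cubn (0.70), the collagen Col4a2 (0.71) and Hs3st1 (0.86), a heparan sulfate sulfotransferase. Nearest to Cubn were Col4a1 (0.35), Col4a2 (0.38), Hs3st1 (0.53) and Sox17 (0.67), an endoderm transcription factor. Nearest to Pdgfra were Amot (0.51), which encodes the junctional scaffold angiomotin, Gata6 (0.62), a transcription factor of the primitive endoderm, Cubn (0.68) and Col4a1 (0.70). Cubn was thus among the nearest genes of both Dab2 and Pdgfra, which differed from each other by 0.90. These members were chosen for low values at 5 mM, which weigh most in this measure, so their nearness to each other follows from the choice. Amot and Gata6 shared with Pdgfra a higher level at 100 µM, with log2 differences from PBS of 1.09 and 1.76 at 100 µM and of -2.35 and -2.55 at 5 mM. Nearest to Apoe were the bright genes Ldha (0.16), which encodes a lactate dehydrogenase subunit, and Hmgn1 (0.21), a nucleosome-binding protein, with the dimmer Dtx1 (0.17), a regulator of Notch signalling, and Adgrd1 (0.22), an adhesion receptor.

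**Figure D4:**
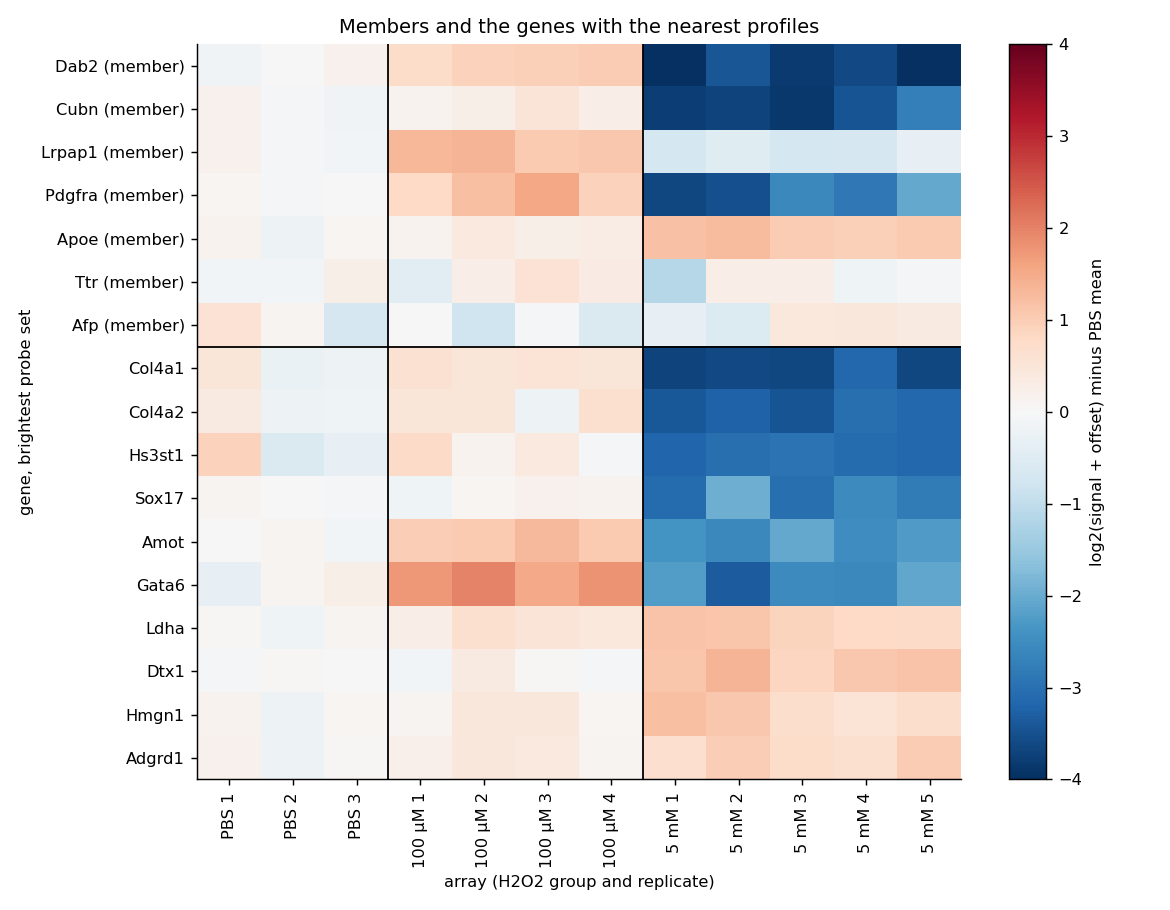
Log2(signal + 10.1) minus the PBS mean (colour, blue lower and red higher) for the brightest probe set of each of the 7 genes (above the line) and of the genes with the nearest profiles (below it), in columns for the 12 arrays. Dab2, Cubn and Pdgfra are lower on all 5 arrays at 5 mM, Apoe is higher on them, and Dab2, Lrpap1 and Pdgfra are higher on all 4 arrays at 100 µM.

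Other genes of the same pathways were counted by their brightest tested probe set. Over all 6414 genes, 11.9% rose and 12.7% fell at 100 µM, and 5.36% were higher and 6.84% lower at 5 mM. These shares are of adjusted calls, and none was computed for an unadjusted p. Of 31 tested genes of the endocytic machinery (clathrin, its AP2 adaptor, Rab proteins and partners), 4 rose and 1 fell at 100 µM, and 1 was higher and 2 lower at 5 mM. Their median log2 difference was 0.05 at both doses, beside 0.04 and -0.01 over all genes. Lrp2, the megalin receptor that works with cubilin, averaged 117 at 5 mM and 262 in PBS (log2 difference -1.13). The retromer gene Vps35 differed by 0.58 and the recycling gene Rab11a by -0.37. At 100 µM the values of these 3 genes were -0.45, 0.06 and -0.03, and none passed.

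A list of the LDL receptor family, scavenger receptors and partners had 12 tested genes. Of these, 2 rose and 1 fell at 100 µM, and 3 were lower and 0 higher at 5 mM in limma (9 had an unadjusted p under 0.05 in either direction at 5 mM). The median was -0.38 at 100 µM and -0.41 at 5 mM. Besides Lrp2, which the endocytic list also holds, the lipoprotein receptor gene Scarb1 (-0.66) and the lysosomal membrane gene Scarb2 (-0.45) were lower at 5 mM. Scarb1 and Scarb2 are not of the LDL receptor family. Scarb2 also fell at 100 µM, by 1.08 on the log2 scale, while Scarb1 had a value of -0.12.

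Of 15 tested genes for apolipoproteins and lipoprotein assembly, 2 rose and 0 fell at 100 µM in limma (4 reached an unadjusted p under 0.05), and 1 was higher and 2 lower at 5 mM. The medians were 0.24 and -0.00. Clusterin (Clu) differed by -1.22 and the fatty acid carrier Fabp3 by -0.80 at 5 mM, and Apod by 1.09. Of 15 tested genes on a list of secreted plasma proteins of the visceral endoderm, 4 rose and 0 fell at 100 µM in limma (5 reached an unadjusted p under 0.05), and 1 was higher and 2 lower at 5 mM. The 4 that rose, named after their values were seen, were the Wnt inhibitor gene Dkk1 (1.81), Amot (1.09), the growth factor gene Nodal (1.04) and the protease inhibitor gene Serpina1c (0.87), so only Serpina1c encodes a plasma protein. The medians were 0.44 and -0.21. The genes that moved most at 5 mM were Amot (-2.35), whose product is not secreted, Lefty1 (1.92), an inhibitor of Nodal signalling, and the protease inhibitor A2m (-1.23).

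Of 21 tested PDGF ligands, receptors and signalling genes, 1 rose and 0 fell at 100 µM, and 0 were past the threshold at 5 mM in limma (an unadjusted p under 0.05 was reached by 4 and by 5 genes). Their median log2 differences were 0.04 and -0.11. The largest values at 5 mM were 0.98 for the adaptor gene Nck1 and 0.78 for the ubiquitin ligase gene Cbl. The ligand gene Pdgfa had values of 0.16 at 100 µM and -0.30 at 5 mM. Pdgfrb, the other PDGF receptor, was too dim to test.

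Markers of cell types were counted likewise, on lists drawn up with earlier results of these arrays known. In bulk RNA, fewer cells of a type and less RNA per cell cannot be told apart. Of 28 tested markers of primitive and extraembryonic endoderm other than the 7 genes, 22 were lower and 1 higher at 5 mM, with a median of -1.64. At 100 µM, 9 rose and 4 fell, with a median of 0.29. Col4a1 averaged 147 at 5 mM and 1877 in PBS (-3.56), Col4a2 98.0 and 1031 (-3.25), and Hs3st1 2.04 and 103 (-3.07). The summed signal of the 35 such genes on the array was 4361 to 4967 at 5 mM, 15286 to 16429 at 100 µM and 11500 to 17149 in PBS.

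Pluripotent cell markers, 22 in number, were past the threshold at 5 mM in 5 genes higher and 1 lower, with a median of 0.16, and at 100 µM in 9 higher and 4 lower, with a median of 0.32. Of those past it at 5 mM, Dppa5a (0.66), Gdf3 (0.62) and Fgf4 (-0.58) had the largest differences, and Esrrb, named after its value was seen, had 0.95 without passing. Their summed signal was 45649 to 51206 at 5 mM, 48667 to 54820 at 100 µM and 38886 to 42406 in PBS. None of 12 tested fibroblast markers passed at 5 mM in limma (3 had an unadjusted p under 0.05), where Timp3 had a value of -0.99 and Tagln -0.78. At 100 µM 2 fibroblast markers rose and 1 fell. The sum over 22 such genes was 1667 to 2253 at 5 mM, 2077 to 2504 at 100 µM and 1681 to 1945 in PBS, so every 100 µM array was above every PBS array. The same held for the pluripotent sum, in which every 5 mM array was above every PBS array too. Of 10 tested trophectoderm markers, 1 was higher and 3 lower at 5 mM. The keratin genes Krt18 (-1.70) and Krt8 (-1.58), which the endoderm list also holds, and Peg10 (-1.09) were the lower ones. The sum over 15 such genes was 1301 to 1785 at 5 mM, 1606 to 1747 at 100 µM and 1528 to 1844 in PBS. Among 8 tested liver and blood cell markers none passed at 5 mM in limma (1 had an unadjusted p under 0.05), with -0.55 for Hba-a1 and 0.53 for Hbb-bh1. The sum over 13 such genes was 368 to 589 at 5 mM, 457 to 589 at 100 µM and 380.2 to 459 in PBS. The part of cell type makeup in the members' values was not tested.

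**Figure D5:**
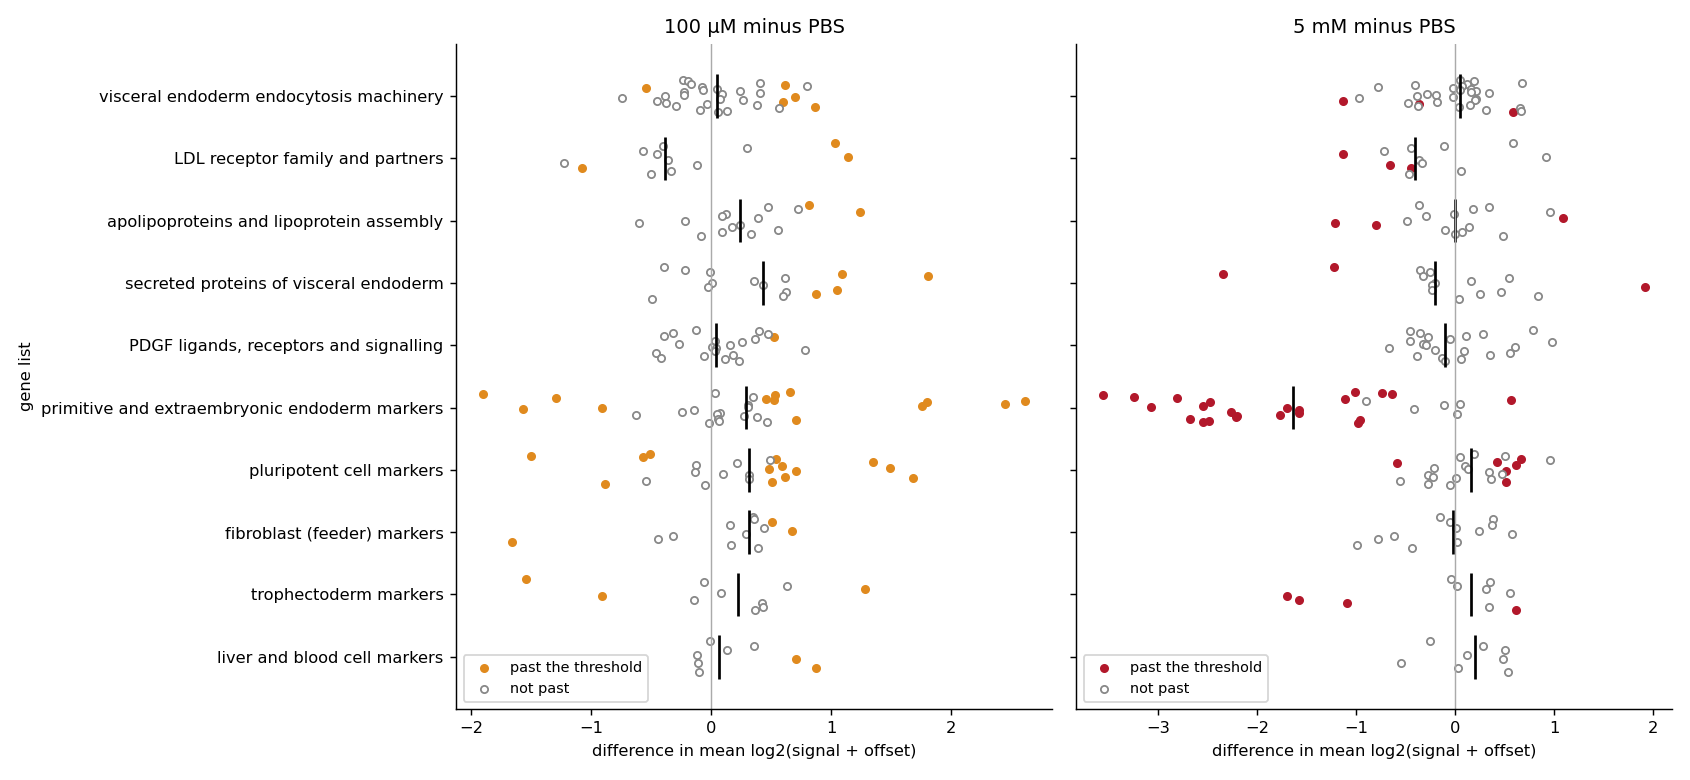
Difference from PBS in mean log2(signal + 10.1) of each tested gene on 10 gene lists (rows), at 100 µM (left) and 5 mM (right); filled points passed the threshold and black lines are list medians. The markers of primitive and extraembryonic endoderm have a median of -1.64 at 5 mM and 0.29 at 100 µM, while the medians of the endocytic machinery are 0.05 at both doses.

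The label of a visceral endoderm set was compared with 8 markers of that tissue, of which 7 were on the array. Afp, Ttr and Cubn are members as well as markers, so the set is in part compared with itself. Cubn was clearly measured in PBS by its bright set (500.0, beside 18.5 by its dim set) and Lrp2 likewise (262). Both the bright Cubn set and Lrp2 were lower at 5 mM. Afp (26.7) and Ttr (23.6) were just above the filter on dim signals, and Apoa1 (10.99), Apob (9.36) and Hnf4a (7.93) did not pass it. These 5 markers were thus dim in PBS. The set holds endocytic genes and the primitive endoderm marker Pdgfra, together with 2 secreted proteins near background and Apoe.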

How the data were processed

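RNA of 12 mouse embryonic stem cell samples was measured on Affymetrix MG_U74Av2 arrays. The deposited table holds 1 linear intensity per probe set and array, a MAS5 signal per the submitters' processing notes. The sources used here give no version or scaling target. The deposited intensities had equal means on all arrays after trimming 2% at each end (within 0.0195%) and were not rescaled.

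Signals plus 10.1 units, their 20th percentile, were log2 transformed. The 66 control probe sets were left out, and the 8695 sets above the 30th percentile of mean log2 value were tested. A model with 1 mean per group over all 12 arrays was fitted with limma 3.58.1 in R 4.3.3 (eBayes with a trend, two-sided, Benjamini-Hochberg adjustment), and checked on simulated data. Arrays have no read depth; their number limits the precision. Groups came from sample titles and gene names from the platform annotation, updated by Entrez number through RefSeq (GRCm38.p6); 10855 sets had 1 symbol. The members and lists were chosen with earlier results of these data known. Named were all probe sets of the members; per list, the 3 genes with the largest difference at 5 mM among those past the threshold, or the 2 largest where fewer than 2 passed; and the 4 genes nearest in profile. Pdgfa and Pdgfrb, the partners of Pdgfra, and the visceral endoderm markers Lrp2, Apoa1, Apob and Hnf4a were named besides. Alternatives were other scalings, offsets, filters and variance models, array weights, only the groups compared, a replicate block and leaving out each array.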

Additional observations from a re-analysis of the deposited data

Results flagged for a closer look

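Of 30 groups of 4 or 5 arrays, 3 held an array far from its group by Dixon's ratio, where chance gives about 5%. Cubn 95000_g_at read 66.76 on 5 mM replicate 5, with the next array at 36.09. Apoe 161321_i_at read 25.17 and Afp 101493_at 22.87 on 5 mM replicate 3, with the next arrays at 6.767 and 6.996; both sets were too dim to test.

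In some member probe sets every 100 µM array was above the PBS mean and every 5 mM array below it. How often this occurs over all tested sets was not counted. The log2 differences of 5 mM minus 100 µM were -4.902 (Dab2 98045_s_at), -2.324 (Dab2 104633_at), -1.622 (Dab2 98044_at), -3.788 (Cubn 95000_g_at), -1.789 (Lrpap1 100086_at) and -4.037 (Pdgfra 95079_at). Single arrays overlapped with those in PBS for Cubn 95000_g_at at 100 µM and for Dab2 98044_at at 5 mM. Both doses share the PBS arrays and the genes were chosen with these differences known, so the opposite directions were not tested.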

How the results depend on the processing

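At 5 mM against PBS the number of member sets past the threshold stayed between 5 and 6 under every setting run, and between 6 and 6 without single arrays; at 5 mM against 100 µM it was 7 or 8, and 8 to 8 without single arrays. At 100 µM against PBS it was 7, and 4 with a floor in place of the offset, where Dab2 98045_s_at (limma adjusted p = 0.0531), Dab2 98044_at (0.0742) and Pdgfra 95079_at (0.0555) missed it; without single arrays it ran from 4 to 7. After quantile normalization Apoe 95356_at changed sign, to -0.0567 at 5 mM and -0.58 at 100 µM, and Ttr to -0.0116 at 100 µM; Apoe then counted as the 1 lower set beside 5 higher. The cause was not tested. Other offsets or scalings moved 7 member values at 5 mM against PBS and 10 at 5 mM against 100 µM by more than the replicate SD, with no change of sign in these. Some sets not past the threshold did change sign under some setting. At 5 mM against PBS, Cubn 94999_at went from 0.34 to -0.065, Lrpap1 161988_f_at from -0.22 to 0.0052 and Afp 101494_at from 0.07 to -0.076. Ttr 95350_at went from -0.17 to 0.070 when a single array was left out. When array medians were equalised, the median log2 difference of all tested sets at 100 µM moved to -0.0898 from 0.0808, with 572 sets higher and 1498 lower (1110 and 977 with the deposited scaling). At 5 mM against PBS it gave 309 and 618 (494 and 524), and at 5 mM against 100 µM 1404 and 872 (1113 and 1272). Called sets in all at 5 mM against PBS were 1018, but 1655 with array quality weights, 597 with the replicate block, 493 without PBS replicate 2 and 602 without PBS replicate 3. Same-numbered arrays of different groups showed no shared deviation (r = -0.18 to 0.15 over 10 pairs, beside -0.16 to 0.18 over 37 other pairs). With so few arrays this cannot exclude that same-numbered samples were handled together. With the replicate block 6, 6 and 8 member sets passed at 5 mM against PBS, 100 µM against PBS and 5 mM against 100 µM.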
